A study of Mus musculus with 16 samples.

Results

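Tissue factor and 8 genes of clotting control and plasminogen activation were followed in cultures of preadipocytes, the dividing stromal cells from which fat cells form in the mouse. The members are F3, Tfpi, Tfpi2, F2r, Thbd, Plau, Plaur, Plat and Serpine2, taken from the deposited table by gene symbol. They are 9 of the 29060 genes in that table, and all 9 were among the 15222 genes whose levels were high enough to be tested. They were picked with their responses to Fgf8b in these libraries in view. Their changes are therefore described here, with errors but without p-values, and nothing is inferred from how many of them moved.

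The cells were grown from the stromal-vascular fraction, the part of fat tissue that remains once the fat cells are removed, of C57BL/6N mice with a UCP1 reporter. White cells came from the inguinal subcutaneous depot and brown cells from the interscapular depot. Each kind received Fgf8b, a secreted fibroblast growth factor, or a control treatment, which gave 4 groups of 4 libraries. These are white control (libraries 1, 3, 5 and 7), white Fgf8b (2, 4, 6 and 8), brown control (9, 11, 13 and 15) and brown Fgf8b (10, 12, 14 and 16). All groups share the strain and the reporter, and the sources used here do not give the dose of Fgf8b, the time of treatment, the control agent or the age of the mice. The design text mentions 3 cultures and does not say which libraries share one, so the errors below measure the spread between these libraries, which may be technical. White libraries carry the lower numbers and brown libraries the higher ones, so depot and any handling that ran with the numbering cannot be told apart.

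Tissue factor, the product of F3, is a membrane protein that binds factor VII and starts the clotting cascade, which ends in thrombin. Tissue factor pathway inhibitor (Tfpi) blocks that first complex, thrombomodulin (Thbd) turns thrombin into an activator of protein C, and the receptor F2r (PAR1) lets thrombin signal to the cell. In the opposing system, urokinase (Plau, held at the cell surface by its receptor Plaur) and tissue plasminogen activator (Plat) cut plasminogen into plasmin, the protease that dissolves fibrin and degrades matrix. Serpine2 (protease nexin 1) inhibits thrombin, urokinase and plasmin. In fat tissue, tissue factor is also known as CD142, a surface marker of one population of stromal cells.

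Levels are given as RPKM (reads relative to transcript length and library depth) of 1 RefSeq transcript per gene, so that they compare between genes. Changes are given as log2 differences of the RPKM summed over all table entries of a gene, plus 0.5, with the standard error (SE) of a limma fit over all 16 libraries. A gene is called when the Benjamini-Hochberg adjusted p of that fit is under 0.05. Depths recovered from the steps of the values lay between 13.7 and 20.1 M reads per library, with white libraries at 15.6 M or more and brown ones at 16.1 M or less. The cells carried markers of adipose stromal cells: all 12 of 12 listed were among the genes tested, with a summed level of 1444.1 to 4785.1 RPKM per library. Their levels were uneven. Dpp4 averaged 0.389 RPKM in white control, 0.0396 in white Fgf8b, 0.139 in brown control and 0.0849 in brown Fgf8b libraries, and Pi16 0.268 RPKM in brown Fgf8b libraries. The sample labels name the source as adipocytes, but all 6 of 6 markers of mature fat cells (Adipoq, Plin1, Cidec, Lep, Retn and Cfd) stayed under 0.2 RPKM in every library. Brown control library 15 was above the other 3 brown controls in 5 members, below them in 1 and within their range in 3. Any 1 library of 4 is often the highest or lowest, so this count alone does not set it apart. The gap was wide for F3 (628.4 RPKM against 552.2 to 554.7). It was narrow for Thbd (22.2 against 21.3 to 22.0) and Plaur (6.60 against 6.67 to 9.08). The log2 changes of the members that use library 15 are given without it as well. Among the 50 list genes tested that are described further on, leaving it out moved no log2 change by more than 0.13. It changed the call of 2 genes for Fgf8b in brown cells, 4 between the control depots and 2 for the difference of the responses, and turned the direction of 0 called genes.

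The promoter table held 6 of the 9 members (F3, Tfpi, Tfpi2, F2r, Plaur and Serpine2) in 9 windows, each reaching from 250 bases before to 50 bases after a transcript start. The sequences are those of 4 members that move with Fgf8b and hold TGANTCA, the letters bound by AP-1 factors, where N is any base and both strands were searched. They come from RefSeq on the mouse build GRCm38.p6 and are printed from 5′ to 3′ along the gene, up to the start and without bases annotated as untranslated. The stretch of F3 is chr3:121723287-121723536 on the plus strand, and that of Plaur is chr7:24462233-24462482 on the plus strand. The stretch of Tfpi2 is chr6:3968377-3968625 and that of F2r is chr13:95618488-95618716, both on the minus strand. Capitals mark each match.
F3: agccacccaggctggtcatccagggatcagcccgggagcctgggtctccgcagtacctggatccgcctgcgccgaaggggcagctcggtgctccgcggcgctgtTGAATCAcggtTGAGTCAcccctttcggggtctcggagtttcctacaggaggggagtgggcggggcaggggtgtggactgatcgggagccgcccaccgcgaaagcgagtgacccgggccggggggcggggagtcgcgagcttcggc
Tfpi2: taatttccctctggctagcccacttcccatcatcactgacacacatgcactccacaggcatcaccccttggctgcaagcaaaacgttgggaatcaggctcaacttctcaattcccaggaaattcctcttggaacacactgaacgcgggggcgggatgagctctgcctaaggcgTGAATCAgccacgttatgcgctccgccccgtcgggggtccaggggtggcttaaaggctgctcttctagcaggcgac
F2r: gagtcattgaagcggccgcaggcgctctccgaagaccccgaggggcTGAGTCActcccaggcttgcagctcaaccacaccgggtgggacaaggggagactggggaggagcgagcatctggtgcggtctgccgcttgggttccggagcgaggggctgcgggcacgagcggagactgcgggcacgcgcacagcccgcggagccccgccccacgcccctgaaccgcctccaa
Plaur: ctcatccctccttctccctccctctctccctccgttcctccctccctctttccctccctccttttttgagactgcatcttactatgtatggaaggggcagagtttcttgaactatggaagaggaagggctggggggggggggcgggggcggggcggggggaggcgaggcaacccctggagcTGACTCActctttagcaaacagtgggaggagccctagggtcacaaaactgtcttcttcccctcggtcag

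F3 held TGANTCA at 2 places, with first bases 146 and 135 bases before the start. Plaur held it 69 bases, Tfpi2 77 bases and F2r 204 bases before the start, for Tfpi2 in 1 of its 3 windows. Among all 32851 windows of the table, 7.81% held TGANTCA. Of the 9 windows of members 4 held it. GGGCGG, the letters bound by SP1, stood in 7 of the 9 windows and in 35.7% of all windows. CGGAAG, a core of sites for ETS factors, stood in 2 of the 9 and in 16.9% of all windows. Those 2 windows are both of Tfpi2, overlap and hold the same match. GGGCGG and CGGAAG can share the letters CGG, and TGANTCA shares no such stretch with them. These matches describe the letters in the windows, and no binding was measured. They fall in members that were higher with Fgf8b (Tfpi2, F2r and Plaur) and in one that was lower (F3).

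**Figure D1:**
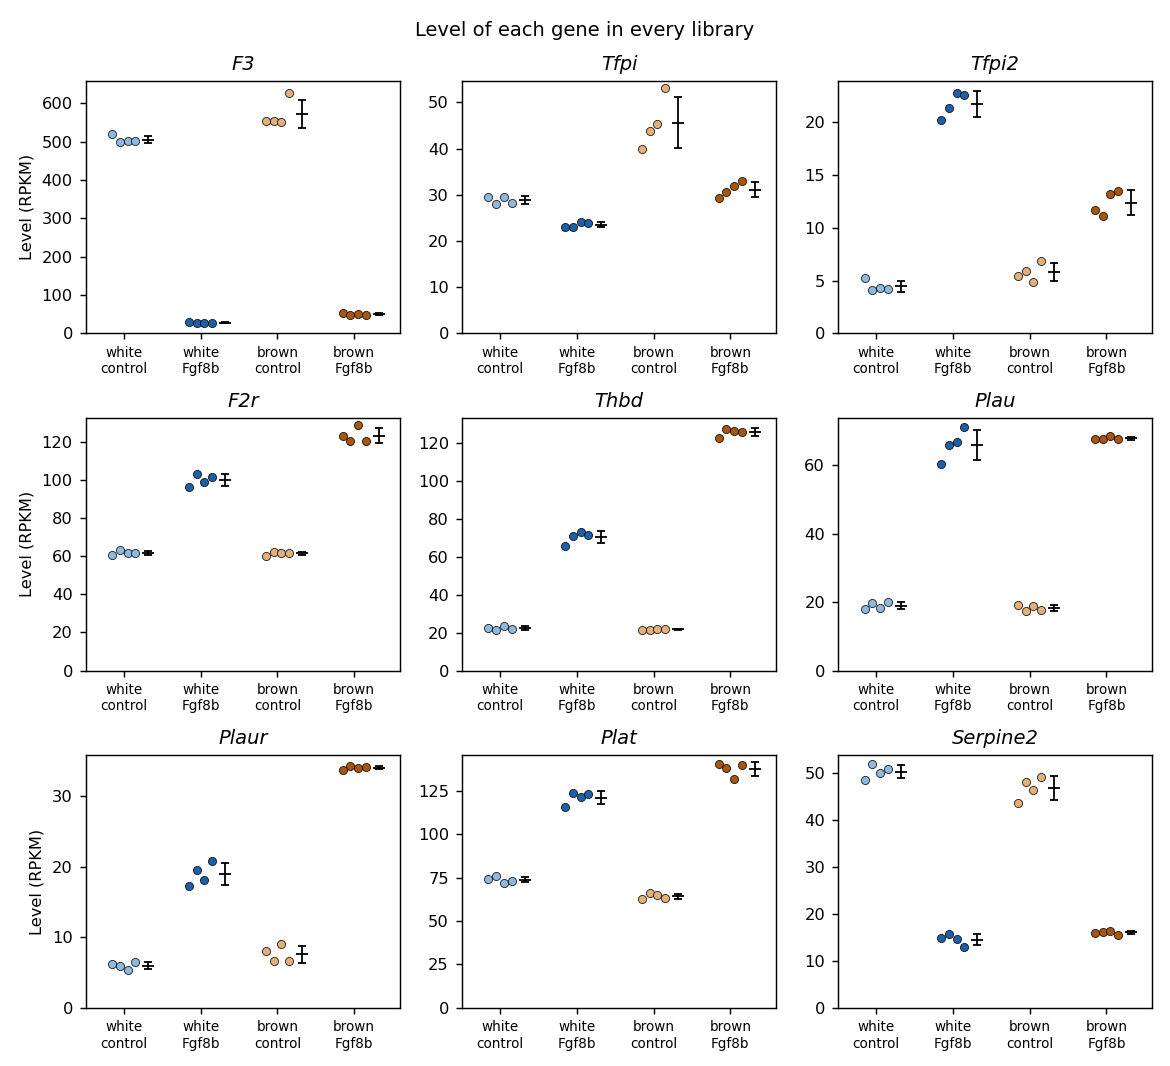
Level of each of the 9 genes in every library (y axis, RPKM of 1 RefSeq transcript, linear from 0) in the 4 groups of 4 libraries (x axis). Points are libraries in the order of their numbers, and the bar beside them is the mean ± SD. F3 lies at 500.0 to 628.4 RPKM in the 8 controls and at 26.1 to 53.0 RPKM in the 8 Fgf8b libraries, while Thbd, Plau and Plaur lie higher in every Fgf8b library than in any control of their depot.

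F3 was the member with the highest level under control, and it was lower with Fgf8b in both depots. Its level was 519.2, 500.0, 503.0 and 501.3 RPKM in the 4 white control libraries and 28.8, 27.3, 28.2 and 26.1 RPKM in the 4 white Fgf8b libraries. In brown cells it was 554.7, 554.3, 552.2 and 628.4 RPKM under control and 53.0, 47.9, 51.6 and 49.4 RPKM with Fgf8b. Each control value rests on 14299 to 18932 reads and each Fgf8b value on 791 to 1590. No Fgf8b library came near a control, and brown Fgf8b libraries lay above all white ones. The log2 change of F3 was -4.19 (SE 0.044), or 18.3-fold lower, in white cells. In brown cells it was -3.50, or 11.3-fold lower, and -3.45 without library 15. In RNA from bulk cultures, fewer cells that express a gene and less of its RNA per cell cannot be told apart.

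Tfpi and the related gene Tfpi2 moved in opposite directions, and by less than F3. Tfpi, the secreted inhibitor of the complex of tissue factor and factor VII, stood at 27.9 to 29.6 RPKM in white control and 23.0 to 24.1 RPKM in white Fgf8b libraries. In brown cells it stood at 40.0, 43.8, 45.4 and 53.1 RPKM under control and 29.2, 30.6, 31.8 and 32.9 RPKM with Fgf8b. Every brown library was above every white library of the same treatment. The log2 change of Tfpi with Fgf8b was -0.25 (SE 0.047), or 1.19-fold lower, in white cells. It was -0.43 in brown cells, or 1.34-fold lower, and -0.37 without library 15. The gene has 18 entries in the table, which appear to share reads, so a ratio of entries does not measure their mix. The ratio of the transcript NM_001177319 to NM_011576 was 0.827 ± 0.0131 (SD, n = 4) in white control, 0.873 ± 0.0276 in white Fgf8b, 0.855 ± 0.0639 in brown control and 0.993 ± 0.0376 in brown Fgf8b libraries. Without library 15 it was 0.880 ± 0.0473 in brown control libraries (n = 3). With library 15, brown controls ran from 0.778 to 0.934 and covered the ranges of both white groups. Brown Fgf8b libraries, at 0.943 to 1.03, lay above all others.

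Tfpi2, a related Kunitz-type inhibitor that is deposited in the matrix and acts on plasmin and other proteases, was among the lowest members in controls and higher with Fgf8b. It was read at 5.21, 4.09, 4.29 and 4.24 RPKM in white control and 20.2, 21.3, 22.8 and 22.6 RPKM in white Fgf8b libraries. Brown libraries gave 5.45, 5.92, 4.91 and 6.90 RPKM under control and 11.7, 11.1, 13.2 and 13.5 RPKM with Fgf8b. White and brown controls overlapped, whereas with Fgf8b every white library lay above every brown one. The white change was a log2 of 2.23 (SE 0.098), or 4.68-fold higher, with 116 to 123 reads in a control and 530 to 691 with Fgf8b. The brown change was 1.07, or 2.10-fold higher, and 1.15 without library 15.

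The thrombin receptor F2r and the thrombin cofactor Thbd were both higher with Fgf8b, and more so in brown cells. F2r, which thrombin cuts to start signalling through G proteins, ranged from 60.6 to 63.1 RPKM in white control and from 96.5 to 103.4 RPKM in white Fgf8b libraries. In brown cells F2r was 60.3 to 62.2 RPKM under control and 120.4 to 129.0 RPKM with Fgf8b. The control groups of the depots covered the same range, and the Fgf8b groups did not overlap with each other or with controls. The log2 change of F2r was 0.70 (SE 0.034), or 1.62-fold, in white and 1.0, or 2.0-fold, in brown cells.

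Thbd, a membrane protein best known from endothelial cells, gave 22.5, 21.2, 23.7 and 22.1 RPKM in white control and 65.7, 71.0, 73.2 and 71.6 RPKM in white Fgf8b libraries. Its brown values were 21.3, 21.5, 22.0 and 22.2 RPKM under control and 122.7, 127.7, 126.6 and 125.7 RPKM with Fgf8b. All 8 controls thus sat in one narrow band, and the brown Fgf8b libraries lay above the white Fgf8b libraries. Thbd was 3.14-fold higher with Fgf8b in white cells (log2 1.65, SE 0.043) and 5.75-fold higher in brown cells (log2 2.52, and 2.54 without library 15). Of 12 endothelial markers, Tie1, Cldn5, Erg and Robo4 were under 0.2 RPKM in every library. The summed level of the 12 was lower with Fgf8b, at 18.3 to 20.6 RPKM in white control, 12 to 13.3 in white Fgf8b, 15.5 to 17.0 in brown control and 9.17 to 10.1 in brown Fgf8b libraries. Of the 7 endothelial markers tested, 2 were higher, 4 lower and 1 not called in each depot. Of all genes tested, 65.7% were called in white and 71.4% in brown cells. Tek, named like the next 2 after its values were seen, fell from 9.29 to 0.608 RPKM in white and from 6.58 to 0.380 RPKM in brown cells. Cdh5 rose from 1.13 to 1.92 RPKM in white and from 0.571 to 0.844 RPKM in brown cells, and Egfl7 from 6.15 to 9.23 and from 4.57 to 5.91 RPKM. Their part in the change of Thbd was not tested.

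The 2 plasminogen activators and the urokinase receptor were higher with Fgf8b in both depots. Plau, the secreted protease urokinase, was 17.9, 19.7, 18.2 and 20 RPKM in white control and 60.3, 65.9, 66.6 and 71.0 RPKM in white Fgf8b libraries. In brown cells Plau was 19.2, 17.3, 18.9 and 17.6 RPKM under control and 67.5, 67.7, 68.5 and 67.7 RPKM with Fgf8b. Brown and white libraries overlapped under both treatments. The log2 change of Plau was 1.77 (SE 0.056), or 3.40-fold higher, in white cells and 1.90, or 3.73-fold higher, in brown cells.

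Plaur, the lipid-anchored receptor that holds urokinase at the cell surface, had low levels in controls. White control libraries gave 6.18, 5.87, 5.41 and 6.52 RPKM, from 135 to 165 reads, and white Fgf8b libraries 17.3, 19.6, 18.2 and 20.8 RPKM. Brown control libraries gave 8.08, 6.67, 9.08 and 6.60 RPKM and brown Fgf8b libraries 33.8, 34.4, 34.0 and 34.2 RPKM, from 692 to 756 reads. Brown Fgf8b libraries differed among themselves by less than 1 RPKM and lay above all others. The log2 change of Plaur was 1.64 (SE 0.085), or 3.12-fold higher, in white and 2.16, or 4.48-fold higher, in brown cells, and 2.11 in brown cells without library 15.

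Plat, tissue plasminogen activator, ranked second among the members in controls and first with Fgf8b. Its level was 72.1 to 76.1 RPKM in white control, 115.5 to 123.5 RPKM in white Fgf8b, 62.7 to 66.2 RPKM in brown control and 132.0 to 140.7 RPKM in brown Fgf8b libraries. Brown cells were thus below white cells under control and above them with Fgf8b. Plat was 1.64-fold higher with Fgf8b in white cells (log2 0.72, SE 0.033) and 2.15-fold higher in brown cells (log2 1.10). Within a library, the ratio of Plau to Plat in RPKM was 0.257 ± 0.0128 in white control and 0.545 ± 0.0231 in white Fgf8b libraries (SD, n = 4). In brown libraries it was 0.284 ± 0.0194 under control (0.287 ± 0.0231 without library 15, n = 3) and 0.493 ± 0.0179 with Fgf8b, so Plau was nearer to Plat with Fgf8b in both depots and below it throughout.

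Serpine2, the cell-bound inhibitor of thrombin and urokinase, was lower with Fgf8b. White control libraries had 48.5, 51.9, 50.1 and 51.0 RPKM and white Fgf8b libraries 14.9, 15.7, 14.6 and 13 RPKM. Brown control libraries had 43.6, 48.1, 46.5 and 49.3 RPKM and brown Fgf8b libraries 16, 16.2, 16.4 and 15.6 RPKM. Control and Fgf8b libraries were far apart in both depots, and the depots overlapped under either treatment. The log2 change of Serpine2 was -1.79 (SE 0.050), or 3.46-fold lower, in white cells and -1.54, or 2.91-fold lower, in brown cells. Without library 15 the brown changes were -1.52 for Serpine2, 1.0 for F2r, 1.85 for Plau and 1.09 for Plat.

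**Figure D2:**
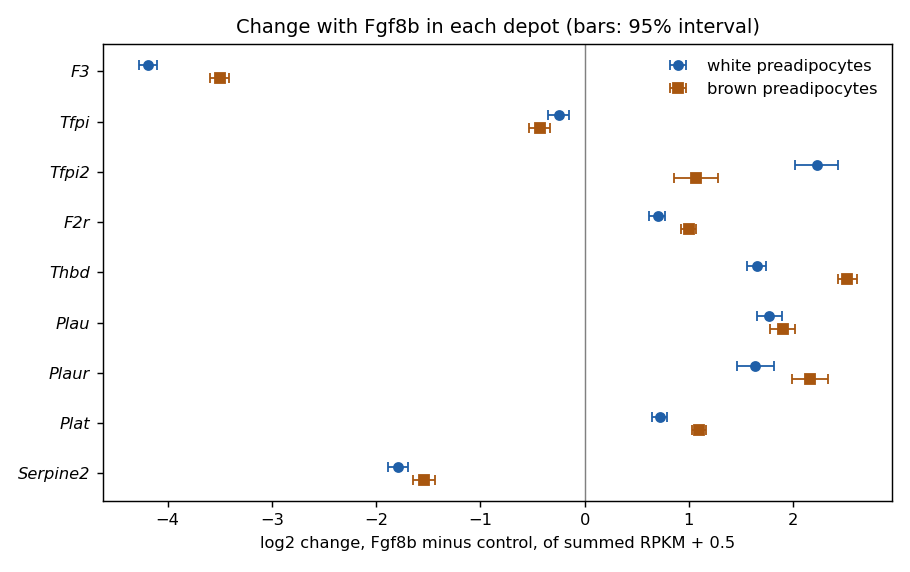
Change of each gene with Fgf8b (x axis, log2 of summed RPKM plus 0.5, Fgf8b minus control) in white (circles) and brown (squares) preadipocytes, with bars for the 95% interval from the limma fit over 16 libraries. F3, Tfpi and Serpine2 lie left of 0 and the other 6 genes right of it in both depots.

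With Fgf8b, all 9 members were called in white cells, 6 higher and 3 lower, where 65.7% of all genes tested were called, 36.3% higher and 29.5% lower. All 9 were also called in brown cells, with the same 6 higher and 3 lower, where 71.4% of all genes were called, 36.7% higher and 34.7% lower. All 9 were called in the same direction in both depots, as were 52.7% of all genes. The 4 control and 4 Fgf8b libraries did not overlap for any member in either depot, against 63.8% of all genes in white and 62.0% in brown cells. The median size of the log2 change was 1.65 over the members and 0.31 over all genes in white cells, and 1.54 and 0.37 in brown cells. Members were chosen on this contrast, so nothing is read from these counts. The balance over all genes depends on the scaling: in white cells 5521 genes were higher and 4486 lower, against 4738 and 5100 with upper-quartile and 4861 and 4975 with median-of-ratios factors. In brown cells 5582 were higher and 5282 lower, against 4680 and 6108, and 5253 and 5585. The direction and call of all 9 members with Fgf8b held under both factors.

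The order of the levels changed with Fgf8b. In white control libraries it ran F3, Plat, F2r, Serpine2, Tfpi, Thbd, Plau, Plaur and Tfpi2, with no overlap between neighbours. The same order held in brown controls, where Serpine2 overlapped with Tfpi, and Plaur with Tfpi2. In white Fgf8b libraries F3 came after Plat, F2r, Thbd and Plau and before Tfpi, Tfpi2, Plaur and Serpine2, with overlaps between Thbd and Plau and between Tfpi2 and Plaur. In brown Fgf8b libraries F3 again followed Plat, Thbd, F2r and Plau, of which Thbd and F2r overlapped, and preceded Plaur, Tfpi, Serpine2 and Tfpi2.

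**Figure D3:**
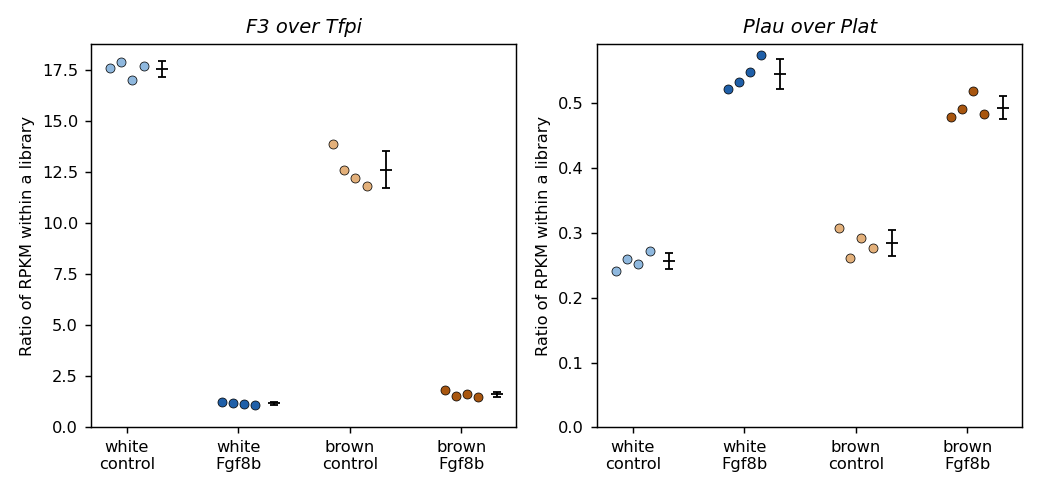
Ratio of F3 to Tfpi (left) and of Plau to Plat (right) within each library (y axes, ratio of RPKM of RefSeq transcripts, linear from 0) in the 4 groups (x axis). Points are libraries and bars the mean ± SD of 4. F3 over Tfpi lies between 11.8 and 17.9 in controls and between 1.09 and 1.81 with Fgf8b.

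The F3 transcript exceeded that of Tfpi in every library, by a margin that was smaller with Fgf8b. The ratio of F3 to Tfpi in RPKM was 17.6, 17.9, 17.0 and 17.7 in white control libraries and 1.25, 1.19, 1.17 and 1.09 in white Fgf8b libraries. It was 13.9, 12.6, 12.2 and 11.8 in brown control libraries and 1.81, 1.56, 1.62 and 1.5 in brown Fgf8b libraries. White libraries were above brown ones under control and below them with Fgf8b. These are ratios of 1 transcript per gene, and summed over all entries, which count shared reads more than once, the mean ratio was 4.23 under control and 0.274 with Fgf8b in white libraries, and 2.99 and 0.355 in brown ones. F3 was thus below Tfpi with Fgf8b on the summed scale and above it on the transcript scale.

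Under control, the member that differed most between the depots was Tfpi. The fit called 5 of 9 members between brown and white controls, where 33.9% of all genes were called. Tfpi was 1.60-fold higher in brown cells (log2 0.68, and 0.62 without library 15), and Tfpi2 (log2 0.35, with overlapping ranges), Plaur (0.32) and F3 (0.18, and 0.13 without library 15) were higher by less. Plat was lower in brown cells, with a log2 difference of -0.20. Without library 15 the values were 0.27 for Tfpi2, 0.38 for Plaur and -0.19 for Plat. The other 4 did not pass, with 95% intervals of the log2 difference of -0.08 to 0.07 for F2r, -0.12 to 0.06 for Thbd, -0.21 to 0.03 for Plau and -0.21 to 0.00 for Serpine2. Without library 15 their differences were -0.01, -0.05, -0.04 and -0.13.

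With Fgf8b, 8 of 9 members were called between the depots, where 51.6% of all genes were called. F3 was 1.82-fold higher in brown than in white Fgf8b libraries (log2 0.87), Thbd and Plaur each 1.79-fold (log2 0.84 for both), Tfpi 1.41-fold, F2r 1.23-fold and Plat 1.14-fold. Tfpi2 went the other way and was 1.74-fold lower in brown cells (log2 -0.80). Serpine2 was called at 1.10-fold higher although its ranges overlapped, and its call was lost in 3 of 26 alternative settings. Plau did not pass, with a 95% interval of -0.07 to 0.16.

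The difference of the responses to Fgf8b, brown minus white, was called for 8 of 9 members, where 34.9% of all genes were called. The log2 difference was 0.87 (SE 0.061) for Thbd, 0.52 (SE 0.120) for Plaur, 0.39 (SE 0.046) for Plat and 0.30 (SE 0.048) for F2r, each higher with Fgf8b by more in brown cells. For F3 it was 0.69 (SE 0.062) and for Serpine2 0.25 (SE 0.070), so both were reduced by less in brown cells. Tfpi2 had -1.15 (SE 0.138), a smaller increase in brown cells, and Tfpi -0.18 (SE 0.067), a larger decrease. The call for Tfpi was lost in 14 of 26 alternative settings, and its value was -0.12 without brown control library 15. Plau was not called, at 0.13 (SE 0.079) with a 95% interval of -0.03 to 0.30. Without library 15 the differences were 0.74 for F3, -1.07 for Tfpi2, 0.31 for F2r, 0.89 for Thbd, 0.09 for Plau, 0.46 for Plaur, 0.37 for Plat and 0.27 for Serpine2. This difference and the depot comparisons use the same 16 libraries as the changes with Fgf8b, so they are not independent of the choice of members.

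A list of 50 other clotting and fibrinolysis genes, chosen with earlier results of these data known, gives the surroundings of the members. Genes named from this and the later lists were picked by the size of their change or after their values were seen. The adjusted p-values printed for them are therefore descriptive, and they rest on a spread between libraries that may be technical. Of these, 28 were tested: 13 were higher with Fgf8b, 10 lower and 5 not called in white cells, and 9, 15 and 4 in brown cells. These counts, and those of the parts of the list further on, stand beside 65.7% and 71.4% of all genes called. The median log2 change of the 28 was 0.07 in white and -0.14 in brown cells, beside 0.04 and 0.01 over all genes tested. Most circulating clotting factors were near 0: of 16 proteases and cofactors 3 were tested, namely F8, Klkb1 and Kng1, of which 2 were lower in white and 3 in brown cells. Klkb1 averaged 0.0120 RPKM or less in every group on the 1 transcript that gives levels. Its call in brown cells (log2 -0.54) rests on the sum with other entries. The transcript of Plg, the gene of plasminogen on which Plau and Plat act, is listed at 0 in all 16 libraries. F8, Klkb1, Kng1 and Plg were named after their values were seen.

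The other tested receptors for clotting proteases were higher with Fgf8b, 2 of 2 in both depots. F2rl1 (PAR2, a receptor cut by trypsin-like proteases and by the complex of tissue factor and factor VII) rose from 1.09 ± 0.0598 to 25.2 ± 1.84 RPKM in white cells (log2 4.34, SE 0.069, limma Benjamini-Hochberg adjusted p = 1.04e-19). In brown cells it rose from 1.23 ± 0.0475 to 18.2 ± 0.814 RPKM (log2 3.73, adjusted p = 6.72e-19). F2rl3 (PAR4), the other one and named after its values were seen, stood at 0.0791 and 0.0754 RPKM in white and brown controls and at 0.468 and 1.42 RPKM with Fgf8b.

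Of 8 genes listed as anticoagulants or as related to them, 4 were tested, with 3 higher and 1 lower in white cells and 2 and 2 in brown cells. The 1 lower in white cells was Gas6, listed here as a relative of protein S. Gas6, a vitamin K-dependent ligand of the TAM receptor kinases that resembles protein S, fell from 106.7 ± 1.47 to 5.02 ± 0.293 RPKM in white cells (log2 -4.34, SE 0.050, limma Benjamini-Hochberg adjusted p = 8.81e-22). In brown cells it fell from 140.4 ± 5.5 to 7.08 ± 0.366 RPKM (log2 -4.26, adjusted p = 1.65e-21). Its responses in the depots did not pass the test of their difference (log2 0.08, SE 0.071, adjusted p = 0.402). All 4 genes of vitamin K use and protein processing were tested, with 0 higher and 2 lower in white cells and 0 higher and 3 lower in brown cells.

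Of the 12 genes for plasminogen, its inhibitors and its receptors, 8 were tested: 5 were higher and 3 lower in white cells, and 2 higher and 4 lower in brown cells. Serpinb2 (PAI-2, a urokinase inhibitor) rose from 0.259 ± 0.0308 to 2.03 ± 0.241 RPKM in white and from 0.186 ± 0.101 to 6.48 ± 1.09 RPKM in brown cells. Its log2 changes were 2.59 and 4.51, with a difference of 1.92 (SE 0.240, limma Benjamini-Hochberg adjusted p = 6.20e-06). Serping1, the C1 inhibitor, fell from 133.8 ± 6.21 to 21.1 ± 2.39 RPKM in white and from 126.9 ± 11.8 to 16.6 ± 1.48 RPKM in brown cells (log2 -2.67 and -2.91). S100a10, a partner of annexin A2 at the cell surface, rose in white cells (log2 0.42) and fell in brown cells (log2 -0.34), a difference of -0.76 (SE 0.062, adjusted p = 4.48e-08). Serpini1 (neuroserpin, an inhibitor of tissue plasminogen activator) rose in white cells from 1.06 ± 0.0940 to 2.04 ± 0.145 RPKM (log2 0.92) and did not pass in brown cells (log2 0.19, adjusted p = 0.0542).

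All 7 genes for the uptake of these proteases and their complexes were tested, with 3 higher and 2 lower in white cells and 3 higher and 3 lower in brown cells. Vldlr, an endocytic receptor that also takes up complexes of urokinase with its inhibitors, fell from 9.37 ± 0.215 to 7.52 ± 0.558 RPKM in white and from 7.67 ± 0.574 to 2.04 ± 0.146 RPKM in brown cells. The difference of its responses was a log2 of -1.59 (SE 0.083, limma Benjamini-Hochberg adjusted p = 1.50e-10).

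**Figure D4:**
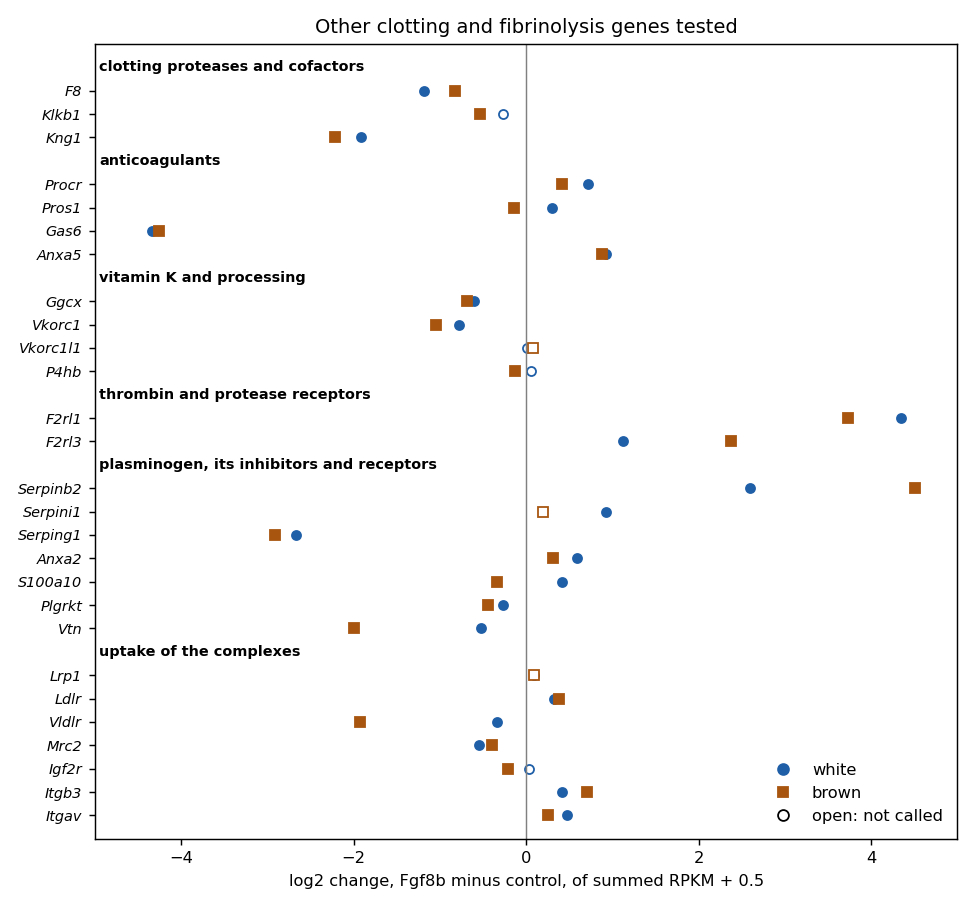
Log2 change with Fgf8b (x axis, log2 of summed RPKM plus 0.5, Fgf8b minus control) of the other clotting and fibrinolysis genes tested, apart from 1 that is not shown (y axis, grouped by role) in white (circles) and brown (squares) preadipocytes. Filled symbols were called and open ones were not. Gas6 lies near -4.3 and F2rl1 near 4 in both depots, and Serpinb2 and Vldlr lie further out in brown than in white cells.

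Since tissue factor marks a stromal population in fat, genes described together with it there were read as well, from a list of 8 of which 6 were tested. In white cells 2 were higher with Fgf8b and 3 lower, and in brown cells 2 were higher and 4 lower. These counts stand beside 65.7% of all genes called in white and 71.4% in brown cells. Gdf10, a secreted protein of the TGF-beta family, fell from 96.5 ± 4.80 to 19.0 ± 1.08 RPKM in white and from 15 ± 1.05 to 7.41 ± 0.642 RPKM in brown cells. Unlike F3, it was 6.33-fold lower in brown than in white controls (log2 -2.66, SE 0.068, limma Benjamini-Hochberg adjusted p = 1.81e-15). Vit, the matrix protein vitrin, fell by 1.95 on the log2 scale in white and by 2.17 in brown cells. Clec11a, a secreted growth factor, fell by 1.92 in white and by 3.38 in brown cells. Other tested genes of this list went otherwise and were named after their values were seen. Abcg1 (log2 0.69 in white and 1.22 in brown cells) and Spink2 (1.30 and 0.81) rose in both depots. Fmo2 was not called in white cells (log2 -0.16) and fell in brown cells (-1.24). Abcg1 and Fmo2 averaged under 1 RPKM in every group. The summed level of the 12 stromal markers also moved with Fgf8b, from 4615.6 to 4785.1 RPKM in white control to 2579.5 to 2726.4 RPKM in white Fgf8b libraries, and from 3323.8 to 3769.3 RPKM to 1444.1 to 1511.0 RPKM in brown cells. Of the 12, 5 were higher and 7 lower in white cells, and 2 higher and 9 lower in brown cells, beside the same shares. Col1a1, the largest part of the sum under control, fell from 1775.9 to 414.9 RPKM in white and from 1313.4 to 234.1 RPKM in brown cells. Pdgfra rose from 94.3 to 98.1 and from 67.5 to 85.3 RPKM, and Thy1 from 269.2 to 745.7 and from 294.1 to 554.7 RPKM. These markers were named after their values were seen. The part of cell makeup in the change of F3 was not tested.

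Markers of other cell types moved as well, and the counts called stand beside 65.7% of all genes called in white and 71.4% in brown cells. The summed level of 8 smooth muscle and pericyte markers was 998.6 to 1135.8 RPKM in white control, 366.3 to 399.6 in white Fgf8b, 1448.7 to 1732.1 in brown control and 479.1 to 572.2 in brown Fgf8b libraries. Of these 8, 2 were higher, 5 lower and 1 not called with Fgf8b in white cells, and 1, 6 and 1 in brown cells. Acta2 and Tagln held most of the sum, at 641.3 and 391.6 RPKM in white control and 178.9 and 162.5 RPKM in white Fgf8b libraries, while Rgs5 rose from 0.383 to 8.89 RPKM and Mcam from 7.69 to 15.2 RPKM in white cells. That of 12 leukocyte markers was 5.49 to 6.26, 7.0 to 7.53, 6.45 to 9.13 and 9.51 to 10.1 RPKM in the same order, with 7 of the 12, among them Ptprc, under 0.2 RPKM in every library. For 8 mesothelial markers the sums were 12.8 to 14.4, 16.6 to 18.4, 14.1 to 15.9 and 16.5 to 20 RPKM, with Upk3b, Lrrn4, Wt1 and Muc16 under that floor. Of the 5 mesothelial markers tested, 1 was higher, 1 lower and 3 not called in white cells, and 2, 1 and 2 in brown cells. The floor was read on 1 transcript per gene and the tests on summed entries. Lrrn4, at 0 RPKM in all groups on that transcript, was thus tested and was the 1 called lower in brown cells (log2 -0.27). Bnc1 rose from 0.0380 to 7.09 RPKM in white and from 0.0212 to 3.55 RPKM in brown cells, and Krt19 fell in white cells from 13.3 to 10.2 RPKM. Of the 5 leukocyte markers tested, 2 were higher, 2 lower and 1 not called in each depot, the last being Laptm5, which was also under the floor. For 5 markers of platelets and megakaryocytes, cells that carry clotting proteins, they were 13 to 14.7, 15.7 to 18.6, 14 to 15.6 and 9.81 to 12.1 RPKM, with Ppbp and Gp9 under it. Of the 2 tested, 1 was higher and 1 lower in white cells and both were lower in brown cells. Library 15 gave the lowest brown control sum of the smooth muscle, leukocyte, mesothelial, platelet and stromal lists, and without it those sums began at 1688.3, 8.83, 15.3, 14.6 and 3653.7 RPKM. The genes named here from these marker lists were picked after their values were seen. Their part in the changes of the members was not tested.

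Targets of the ERK kinases, which act below FGF receptors, served as a check of the treatment. Of 16 listed and tested, 14 were higher and 2 lower with Fgf8b in white cells, and 15 higher and 1 lower in brown cells, beside the 65.7% and 71.4% of all genes called. Dusp6, a phosphatase that acts on ERK, rose from 3.98 ± 0.455 to 26.4 ± 2.55 RPKM in white and from 3.67 ± 0.392 to 40.7 ± 1.14 RPKM in brown cells. The transcription factor gene Etv4 rose from 4.47 ± 0.352 to 30.1 ± 1.04 RPKM in white and from 2.22 ± 0.167 to 26.1 ± 1.09 RPKM in brown cells. The difference of the responses was called for 13 of the 16, beside 34.9% of all genes called either way. Each of these 13 had the higher log2 change in brown cells, which does not mean a higher level there. The difference was a log2 of 1.73 for Dusp4 (SE 0.071), 1.94 for Dusp5 (SE 0.125) and 1.96 for Egr1 (SE 0.073). Egr1 fell in white cells (log2 -1.22) and rose in brown cells (log2 0.74). Spry1 fell in both, by less in brown cells (log2 -1.47 in white and -1.04 in brown cells). Between the controls, 11 of the 16 were called lower in brown cells and 0 higher, beside 33.9% of all genes called either way. With Fgf8b, 7 were called higher and 4 lower in brown cells, beside 51.6% of all genes called either way. Spry2, for example, stood at 63.9 RPKM in white and 52.6 RPKM in brown Fgf8b libraries.

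The genes whose levels followed each member most closely over the 16 libraries were read from Pearson's r of log2 levels among the 11790 genes whose summed RPKM averaged 5 or more. The libraries share depot and treatment, so these values describe likeness of pattern and carry no test. F3 was most like Kcne4 (r = 0.999), Fhl2 (0.998) and Nrg1 (0.997). Kcne4, a subunit of potassium channels, stood at 84.6 and 87.4 RPKM in white and brown controls and at 3.44 and 6.08 RPKM with Fgf8b. F2r and Thbd were each among the genes most like the other (r = 0.996), and Thbd was also like Mtap and Mapk6 (0.997 for both). Plau was followed by Bdkrb2, Tnc and Birc5 (0.998 for each), of which the matrix gene Tnc stood at 96.7 and 93.4 RPKM in white and brown controls and at 343.5 and 365.9 RPKM with Fgf8b. Plat was most like the gene listed as Epb4,1l1 (0.997), then Fosl1 and 2610507B11Rik (0.996 for both). Fosl1, an AP-1 subunit, stood at 8.60 and 5.5 RPKM in controls and at 37.0 and 59.7 RPKM with Fgf8b. Plaur was like Gspt1 (0.995) and Serpine2 like Fmod (0.997), a collagen-binding matrix protein at 53.4 and 49.0 RPKM in controls and 0.804 and 1.02 RPKM with Fgf8b. Tfpi2 was like Sgol2 (0.984), Cthrc1 (0.982) and Thy1 (0.981), of which the collagen-associated Cthrc1 stood at 41.7 and 58.8 RPKM in controls and at 144.8 and 95.7 RPKM with Fgf8b. Tfpi was like Mbnl1 (0.982), an RNA splicing factor.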

How the data were processed

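RNA was sequenced from 16 libraries in 4 groups, grouped by their titles. Per the labels' protocols, total RNA was isolated with Trisure and purified on columns, and a TruSeq kit (RNA Sample Prep v2) gave the libraries. CASAVA and bcl2fastq were used per the submitters' processing notes. The aligner, counting program, genome build and use of strand are not given in the sources used, and reads of a gene and its antisense partner cannot be separated. The authors deposited 1 table with 168326 transcript entries and 16 columns, whose values have the steps of RPKM: at the depths recovered, 95.6 to 96.0% of values worth 50 reads or fewer fell within 0.1 of a whole number of reads, and the deposited RPKM are therefore reads per length and depth. Each entry appears to have been counted on its own, so reads shared by entries of a gene count more than once in their sum.

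The 144549 entries that carry a symbol and no repeated accession were summed by symbol. Genes that reached 0.5 RPKM in 4 or more libraries were tested on log2(RPKM + 0.5), the deposited RPKM plus a pseudocount, with limma 3.58.1 in R 4.3.3 (trend, robust, 4 group means), adjusted by Benjamini-Hochberg over 15222 genes. Because of the pseudocount, folds of genes at low levels come out too small. Tables and figures were made with matplotlib 3.10.9, scipy 1.17.1, pandas 2.3.3 and numpy 2.4.6 under Python 3.11.15, and the fit was tested on simulated data. Members, lists and tests were chosen with earlier results of these data known. Named genes are the 9 members, the 3 most alike genes of each, and from the lists the 3 called genes of the largest change in each comparison with a mean of at least 1 RPKM, of which the text names a part. Alternatives were other pseudocounts, filters, scalings, transcript choices and fits, and leaving out each library. The result for 1 named gene is not reported here.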

Additional observations from a re-analysis of the deposited data

Results flagged for a closer look

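Of 36 groups of 4 libraries, 1 for each member and group, 2 held a library far from the other 3, where chance gives about 1 in 20. Both concern F3: white control library 1 at 519.2 RPKM, with the others at 500.0 to 503.0, and brown control library 15 at 628.4 RPKM, with the others at 552.2 to 554.7.

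The response to Fgf8b differed between the depots by the limma test of that difference (brown minus white, log2) for 8 of the 9 members, where 34.9% of all genes were called, listed here as a description since they were chosen with it known. The difference was 0.69 for F3, -0.18 for Tfpi, -1.15 for Tfpi2, 0.30 for F2r, 0.87 for Thbd, 0.52 for Plaur, 0.39 for Plat and 0.25 for Serpine2. The call for Tfpi was lost in 14 of 26 alternative settings. Among genes of the wider clotting and fibrinolysis list it was 1.92 for Serpinb2, -1.59 for Vldlr and -0.76 for S100a10. Among genes described with tissue factor in stromal cells it was -1.46 for Clec11a and 1.33 for Gdf10. Among ERK targets it was 1.96 for Egr1, 1.94 for Dusp5 and 1.73 for Dusp4.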

How the results depend on the processing

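Of 1170 member changes recomputed under 26 other settings, 1150 kept their direction and their side of the threshold. In part of these the log2 value could not change, so the share overstates how firm the directions are. This holds for other filters, other moderation, repeated accessions kept, and fits of only the groups compared. It also holds where the library left out lay outside the groups compared. All 130 counts of genes called and all 390 list counts stayed within 1.5 times the reported count. The 144 levels were recomputed only without 1 library. That cannot move a group mean by as much as 1 SD, so nothing is read from their staying within it. Counts did move: genes called between the depots ranged from 4380 to 5271 under control and from 7199 to 8513 with Fgf8b, and called genes of the clotting list with Fgf8b between the depots from 15 to 20. The exceptions follow. The difference of the Tfpi responses (log2 -0.18) was no longer called without a filter (-0.18), with median-of-ratios scaling (-0.16), without trend and robust moderation (-0.18) and in 11 of the 16 settings without 1 library, which ranged from -0.22 to -0.12. The depot difference of F2r under control, which was not called, ranged from -0.01 to 0.01 without 1 library (0.01 without white control 3 and 0.00 without brown control 9). That of Serpine2 under control ranged from -0.13 to -0.08 and was called without white Fgf8b 8. That of Serpine2 with Fgf8b was not called with upper-quartile scaling (0.11), nor without white Fgf8b 8 (0.09) or brown Fgf8b 14 (0.13), in a range of 0.09 to 0.18. The cause was not tested. Ratios of summed entries were, for F3 over Tfpi, 4.23 under control and 0.274 with Fgf8b in white and 2.99 and 0.355 in brown libraries, and for Plau over Plat 0.0845, 0.177, 0.0915 and 0.160 in the same order, since the genes differ in their number of entries. No paired analysis was possible because the groups share no replicate numbers and no label pairs a control with an Fgf8b library. Depth limits Tfpi2 and Plaur most, with 113 to 202 reads per control library.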
